A study of Mus musculus with 8 samples.

Results

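The 8 scanner files of this study of mouse colon fall into 2 sets of 4 that differ in genes known to mark different stretches of gut. Set A holds the files stored under normal 1, tumor 2, tumor 3 and tumor 4. Set B holds those stored under tumor 1, normal 2, normal 3 and normal 4. Together they are 8 of 8 files, and the sets were chosen by how each file relates to the authors' table of normalized values, which has 1 column per sample. A file went into set B when its probes had almost the same rank order as 1 column, and all 4 of its files had a Spearman correlation that rounded to 1. The highest correlation of a set A file with any column was 0.9724 for normal 1, 0.9710 for tumor 3, 0.9600 for tumor 2 and 0.9547 for tumor 4. Within set B, the file under tumor 1 matched column tumor 1, normal 2 matched column normal 1, normal 3 matched column normal 2, and normal 4 matched column tumor 2. File names are therefore used below as names of arrays, and are not read as tumor or normal tissue.

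All samples are labelled as C57BL/6 mice. Samples labelled tumor are colon adenomas of genotype Tcf4Het ApcHet, and samples labelled normal are normal colon of genotype TCF4WT ApcHet, so 1 mutant copy of Apc is common to both groups. The sample titles call all animals adult. The protocol gives the distal 2.5 cm of colon as the tissue, with no age in weeks and nothing on pooling. Total RNA was labelled with Cy3 and hybridised to 1-colour Agilent arrays, 1 sample per array, on 2 slides of 4. On each slide set A lies at positions 2 and 4 and set B at positions 1 and 3, so that set and position cannot be told apart, whereas both slides hold both sets. Nothing in the labels says that the arrays of a set share an animal or a tissue, so an SD (n = 4) below is the spread between 4 arrays.

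The intestine changes its gene expression along its length. Small intestinal enterocytes carry a brush border of digestive hydrolases and nutrient transporters and package dietary lipid into lipoproteins, the ileum takes back bile acids, and Paneth cells at the crypt base release antimicrobial peptides. The distal colon absorbs salt and water instead, and its epithelium and wall keep the expression of posterior Hox genes that mark the hindgut.

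Values are log2 of the processed spot signal minus the 75th percentile of the same file, so that 0 is a bright probe and a difference of 1 is 2-fold. A gene was counted as higher or lower in set A when the means differed at least 2-fold and the 4 files of one set all lay above the 4 of the other. Because the sets were chosen from measured values, all differences between them are descriptions, with no test. Of 21618 genes measured, 992 were higher in set A (4.59%) and 635 were lower (2.94%). Counts of list members between the sets, below, are to be read against these shares. The median difference over all genes was -0.11. Because the rule asks that no file overlaps, the direction of these genes is fixed to be the same within each slide. Of the 1627 genes, 1307 differed at least 2-fold within both slides. Correlations between files ran from 0.952 to 0.990 within set A, from 0.892 to 0.984 within set B and from 0.886 to 0.951 between the sets. Apoc3, Mttp, Npc1l1, Treh, Slc6a19, Cyp3a25 and Prm1, named below, were well above background in 3 of 4 set B files, which limits their differences. The same holds for Fgf15, Gata5, Slc13a1, Gip, Hoxb3 and Hoxb4, and Hoxc6 was well above background in 2 of 4. In bulk tissue, fewer cells of a type and less RNA per cell cannot be told apart.

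The promoters of 4 genes that were far brighter in set A are shown first, because their windows hold letters of 3 of the 4 motifs searched, all of factors known in intestinal epithelium. They were chosen for holding such letters. Each line gives the 250 bases before the gene's start from RefSeq on GRCm38.p6, 5′ to 3′ on the gene's own strand. Capitals mark matches on either strand. The letters searched for the nuclear receptor HNF4 were CAAAGTC, part of its consensus. Those for HNF1, a homeodomain factor of liver and gut, were GTTAAT, which is a half-site. Those for CDX, the homeodomain factors of intestinal identity, were TTTATG. Those for the GATA zinc finger factors were AGATAA, and no letters of any motif overlap another in these windows.
Alpi, chr1:87101607-87101856, minus strand: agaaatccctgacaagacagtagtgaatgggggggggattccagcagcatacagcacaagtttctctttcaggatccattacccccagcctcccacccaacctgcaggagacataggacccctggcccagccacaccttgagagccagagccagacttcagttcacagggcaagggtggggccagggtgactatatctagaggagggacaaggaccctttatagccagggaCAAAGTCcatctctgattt
Slc51a, chr16:32487880-32488129, minus strand: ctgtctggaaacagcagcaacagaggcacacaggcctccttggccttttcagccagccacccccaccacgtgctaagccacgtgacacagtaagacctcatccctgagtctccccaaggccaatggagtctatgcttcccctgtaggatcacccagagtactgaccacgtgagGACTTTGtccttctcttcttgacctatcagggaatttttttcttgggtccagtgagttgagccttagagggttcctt
Fabp6, chr11:43601563-43601812, minus strand: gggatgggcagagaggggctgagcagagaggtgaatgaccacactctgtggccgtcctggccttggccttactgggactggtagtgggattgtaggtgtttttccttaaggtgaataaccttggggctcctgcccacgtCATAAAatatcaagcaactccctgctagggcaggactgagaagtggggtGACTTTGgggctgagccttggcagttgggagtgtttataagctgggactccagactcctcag
Sis, chr3:72967864-72968113, minus strand: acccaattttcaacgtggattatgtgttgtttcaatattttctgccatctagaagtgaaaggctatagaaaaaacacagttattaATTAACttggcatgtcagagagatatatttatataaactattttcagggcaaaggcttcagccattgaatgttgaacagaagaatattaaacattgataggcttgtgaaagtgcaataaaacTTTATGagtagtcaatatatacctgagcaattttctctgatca
The HNF4 letters begin 19 bases before the start of Alpi, and their reverse complement begins 77 bases before that of Slc51a and 62 bases before that of Fabp6. In the Sis window, the reverse complement of the HNF1 letters begins 165 bases upstream and the CDX letters begin 43 bases upstream. In that of Fabp6, the reverse complement of the CDX letters begins 111 bases upstream. Of the 21618 measured genes, 13735 had a promoter entry under the same symbol. The HNF4 letters or their reverse complement stood in 54 of the 645 promoters of genes higher in set A (8.37%). The share was 22 of 450 for genes lower in set A (4.89%), 3.62% of all measured promoters and 3.80% of all 27025 symbols listed. The HNF1 letters stood in 6.67% of the promoters of both the higher and the lower genes, against 4.99% of measured promoters. The CDX letters stood in 9.30% and 10%, against 8.0%, and the GATA letters in 9.61% and 6.22%, against 7.59%. A match is a description of letters in a window and not a site in use, and the 4 motifs were searched with the values above known.

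Sis encodes sucrase-isomaltase, the disaccharidase of the small intestinal brush border. Its probe, at chr3:72976817-72976876 on mm8, read 5.83, 5.76, 6.47 and 6.37 in the set A files normal 1, tumor 2, tumor 3 and tumor 4. In the set B files tumor 1, normal 2, normal 3 and normal 4, it read -0.73, -1.33, -1.38 and -2.56. All set A files were above all set B files, by 195-fold between the means (6.11 ± 0.37 against -1.5 ± 0.77, SD, n = 4). The values of every gene below are given in this order of files.

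Fabp6, the ileal bile acid binding protein (probe at chr11:43444875-43444934), read 5.93, 5.55, 5.88 and 3.86 in set A and -2.01, -1.11, -2.18 and -3.90 in set B. The sets stood 195-fold apart, and the file tumor 4 was the lowest of set A. Apoa1, the main protein of high-density lipoprotein (probe at chr9:45980833-45980892), read 4.82, 4.80, 6.23 and 5.80 in set A and -1.71, -2.19, -1.87 and -4.98 in set B. The difference was 275-fold, with normal 4 the lowest of set B. Alpi, the intestinal alkaline phosphatase of mature enterocytes (probe at chr1:88929486-88929545), read 1.62, 1.76, 2.29 and 2.74 in set A and -1.30, -2.99, -3.30 and -3.41 in set B, a difference of 28.9-fold. A dimmer Alpi probe differed by 1.4 with overlapping files, so the size for this gene depends on the probe.

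The distal colon markers ran the other way. Hoxb13, the most posterior gene of the HoxB cluster (probe at chr11:96012144-96012203), read -6.71, -7.20, -1.97 and -6.37 in set A and 4.19, 4.97, 4.19 and 3.87 in set B. It was well above background in 1 of 4 set A files, tumor 3, and in all of set B, so the other 3 values of set A are at background and no fold is given. Hoxd13, its paralogue in the HoxD cluster (probe at chr2:74472030-74472089), read -8.43, -7.25, -2.46 and -8.47 in set A and 2.92, 2.79, 3.80 and 2.71 in set B. It too was well above background in 1 of 4 set A files. The file tumor 3 again stood above the rest of set A, although a second, dimmer Hoxd13 probe read -7.9 there and did not.

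Aqp8, the aquaporin of surface colonocytes (probe at chr7:123259070-123259129), read -2.83, -3.55, -0.16 and -2.01 in set A and 6.36, 7.42, 6.47 and 4.34 in set B, a difference of 312-fold. Car1, the colonic carbonic anhydrase (probe at chr3:14744230-14744289), read -1.56, 0.63, -0.89 and -2.32 in set A and 5.42, 6.13, 5.03 and 3.32 in set B, a difference of 64.5-fold. Both were well above background in all 8 files. The markers of set A therefore go against the label distal colon, and those of set B do not.

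**Figure D1:**
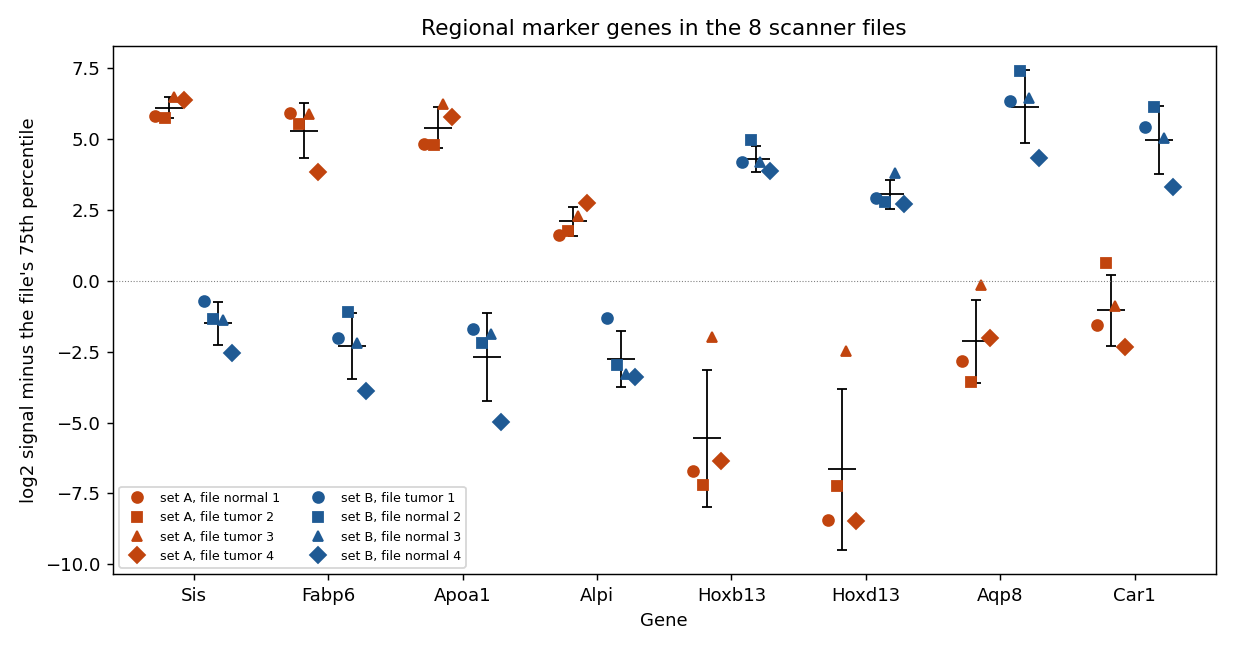
Signal of the 8 regional markers in each scanner file, as log2 relative to the file's 75th percentile (y axis), by gene (x axis). Points are single files of set A (orange) and set B (blue), and black bars are the mean ± SD of 4 files. The 4 small intestine genes on the left are high in set A and the 4 distal colon genes on the right are high in set B, with no overlap.

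Genes of the enterocyte surface were higher in set A almost throughout. Of 17 brush border hydrolases, 15 were measured, and 13 of these were higher and none was lower. Their median difference was 4.85, against -0.11 over all genes. The list mean was 3.06, 3.08, 4.33 and 3.84 in set A and -0.59, -0.86, -0.61 and -1.90 in set B. Enpep, the aminopeptidase A that trims acidic residues from peptides, read 5.73 to 6.53 in set A and -2.74 to -0.01 in set B, a difference of 181-fold. Anpep, aminopeptidase N, differed 77.1-fold and Treh, trehalase, 80.8-fold. Mgam, the maltase-glucoamylase, was bright in both sets and differed 6.10-fold. The 2 members without a call were Lct and Tmprss15. The first is described with the differences inside set A. Tmprss15, the duodenal enteropeptidase, read -6.23 to -3.82 in set A and -7.59 to -3.19 in set B.

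Lipid absorption followed. Of 22 genes on the list, 15 were higher in set A and 1, the lipoprotein receptor Scarb1, was lower. The median difference was 3.27. Npc1l1, the sterol importer that ezetimibe blocks, read 3.49, 3.34, 4.89 and 4.38 in set A and -2.86, -4.16, -2.83 and -5.05 in set B, a difference of 216-fold. Mttp, which loads lipid onto apolipoprotein B, differed 74.6-fold, and Apoc3, an inhibitor of lipoprotein lipolysis, 58.9-fold. Fabp2, the intestinal fatty acid binding protein, was bright in set A, at 7.0 to 7.82, and read 0.32 to 3.98 in set B.

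Bile acid handling by the ileum gave 6 of 7 genes higher in set A and none lower, with a median difference of 5.15. Slc51a, the alpha subunit of the basolateral bile acid exporter, read 7.53, 7.74, 8.11 and 7.29 in set A and -0.35, 0.35, 1.04 and -3.72 in set B. This was a difference of 323-fold, and a second probe of the gene gave 9.6 on the log2 scale. Slc10a2, the apical bile acid importer, read 4.32, 4.04, 4.23 and 3.47 in set A and -2.08, -1.88, -1.89 and -0.92 in set B. All 3 of its probes separated the sets. Fgf15, the ileal hormone that restrains bile acid synthesis in the liver, read 0.07, -1.30, 1.97 and 0.47 in set A and -3.72, -5.07, -6.08 and -4.52 in set B. Nr1h4, the bile acid receptor FXR, was bright in both sets and differed 3.07-fold. The seventh gene, Nr0b2, was dim in both.

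Nutrient transporters were divided. Of 25 genes, 12 were higher in set A, 4 were lower and 9 met neither rule, with a median difference of 1.98. Of all genes, 4.59% were higher and 2.94% lower. Slc6a19, the neutral amino acid carrier, differed 226-fold, at 2.52 to 3.59 in set A and -7.90 to -3.50 in set B. Amn, the partner of cubilin in vitamin B12 uptake, differed 72.9-fold and Slc3a1, the heavy chain of the cystine carrier, 58.3-fold. Slc5a1, the sodium-glucose carrier, differed 9.39-fold. Trpv6, an epithelial calcium channel, ran against the list. It read -5.14, -7.90, -3.37 and -8.02 in set A and 1.02, -0.22, 0.30 and 0.98 in set B, and was well above background in 2 of 4 set A files. The other 3 lower members were the proton-coupled amino acid carrier Slc36a1, the folate carrier Slc46a1 and the iron exporter Slc40a1.

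Paneth cell products were higher in set A in 13 of 15 measured genes and lower in none, with a median difference of 4.33. The list mean lay between 6.13 and 6.53 in set A and between 1.16 and 2.80 in set B. Lyz1, Paneth lysozyme, read 7.23, 7.03, 7.32 and 7.38 in set A and 5.05, 3.19, 3.58 and 4.84 in set B. Reg3g, a bactericidal lectin that enterocytes also make, differed 28.5-fold, and Ang4, an antimicrobial ribonuclease, 9.65-fold. The alpha-defensins were among the brightest differences, with Defa21 at 65.5-fold and Defa22 at 182-fold. Their genes are nearly identical copies, so probes can cross-hybridise and single defensins are uncertain. Mptx1, a pentraxin, read 6.19 to 7.05 in set A and 6.54 to 7.88 in set B, and the sets overlapped.

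**Figure D2:**
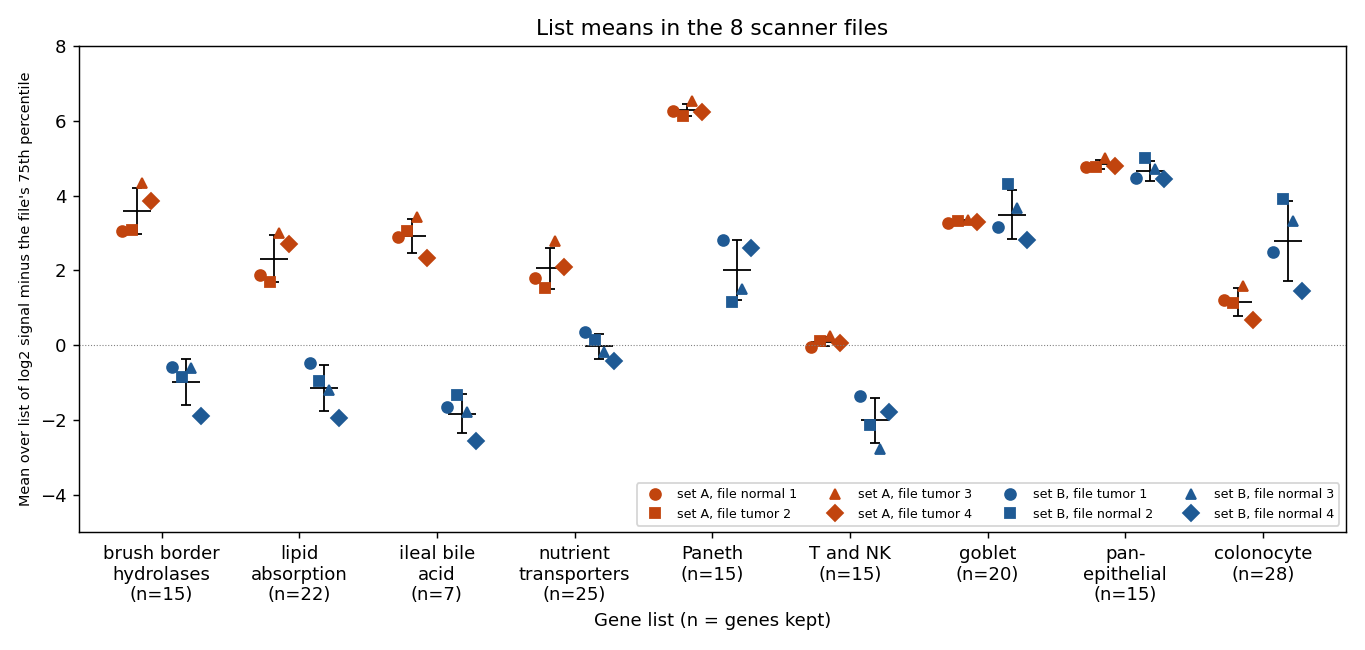
Mean over the measured genes of 9 lists in each scanner file, as log2 signal relative to the file's 75th percentile (y axis), by list with its number of genes (x axis). Points are single files of set A (orange) and set B (blue), and black bars are the mean ± SD of 4 files. Brush border, lipid, bile acid, nutrient, Paneth and T and NK lists are higher in all files of set A, goblet and pan-epithelial lists overlap, and the colonocyte list is lower in set A apart from the overlap of 1 file of each set.

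Colonocyte transport and metabolism showed the reverse with exceptions. Of 28 genes, 11 were lower in set A, 3 were higher and 14 met neither rule, with a median difference of -1.80. Of all genes, 2.94% were lower and 4.59% higher. The list mean overlapped, at 0.68 to 1.59 in set A and 1.44 to 3.91 in set B, with the set B file normal 4 the lowest of its set. Car2, a carbonic anhydrase, read -0.19, -0.67, 0.20 and -0.45 in set A and 5.38, 6.87, 5.63 and 4.00 in set B. Wfdc2, a secreted protease inhibitor of the distal gut, differed 36.8-fold, and Atp12a, the colonic proton-potassium pump, 56.3-fold. Scnn1b, a subunit of the aldosterone-driven sodium channel, was well above background in 2 of 4 set A files and read -6.60 to -4.59 there, against -2.40 to -0.67 in set B. The 3 members higher in set A were Tmigd1 (178-fold), the guanylin-family peptide gene Guca2b (18.1-fold) and the keratin gene Krt20 (2.86-fold). These 3 are also made by small intestinal epithelium, and whether this bears on their direction was not tested.

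Hox genes differed in both directions, by cluster as well as by position. Of 39 Hox genes, 38 had a probe and 32 were measured. Of those, 8 were higher in set A and 11 were lower, where 4.59% and 2.94% of all genes were. The lower genes were Hoxa2, Hoxa5, Hoxa7, Hoxa9, Hoxa10, Hoxa11, Hoxa13, Hoxb13, Hoxd10, Hoxd11 and Hoxd13. The higher ones were Hoxb2 to Hoxb7, Hoxc6 and Hoxc9. All called HoxA and HoxD genes were lower, anterior Hoxa2 and Hoxa5 included, and the called HoxB genes were higher apart from Hoxb13. The called HoxD genes were all of groups 10 to 13, so cluster and position cannot be told apart there. With overlapping files, Hoxd4 (1.03) and Hoxd8 (0.86) pointed up. Hoxd3 (-0.52), Hoxd9 (-1.36) and Hoxd12 (-0.81) pointed down, also with overlap. Every measured gene of paralogue groups 10 and 11 was lower, and so were 3 of 4 of group 13, Hoxc13 being dim and overlapping. A gene was measured when well above background in at least 4 of 8 files. Genes at background in all of set A, such as Hoxa13 and Hoxd10, could pass only through set B. The pattern by group is therefore partly fixed by the filter.

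Among the HoxA genes that were well above background in all set A files, the difference was -1.25 for Hoxa2, -1.10 for Hoxa5, -2.05 for Hoxa7 and -2.87 for Hoxa9. Hoxa10 was above background in 3 of 4 set A files and Hoxa11 in 1 of 4, so their differences are limited by background. Hoxa11 read -8.83, -7.88, -4.85 and -8.48 in set A and 0.15, -0.46, -0.76 and 0.65 in set B. Hoxa13 and Hoxd10 were not well above background in any set A file, and were at least 19.5-fold and at least 18.9-fold brighter in set B. These bounds set the mean of set B against the lowest signal that counted as above background in each set A file, or the probe's own signal where that was higher.

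Hoxb7 read 3.39, 3.28, 2.53 and 1.61 in set A and -2.11, -2.53, -1.71 and -2.25 in set B. Hoxc9 read -0.94, -0.61, -1.42 and -2.27 in set A and -6.45, -6.29, -4.38 and -7.20 in set B, where it was well above background in 1 of 4 files. In both, the set A files of slide 1 were above those of slide 2. Hoxb6 differed by 4.10, but a second probe overlapped between the sets, and under quantile normalization that second probe became the brightest and gave -0.16. Second probes of Hoxb2 (0.70) and Hoxb3 (0.52) also overlapped between the sets. Hoxb8 had no call, but a second, dimmer probe of it differed by 3.36 with no overlap.

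**Figure D3:**
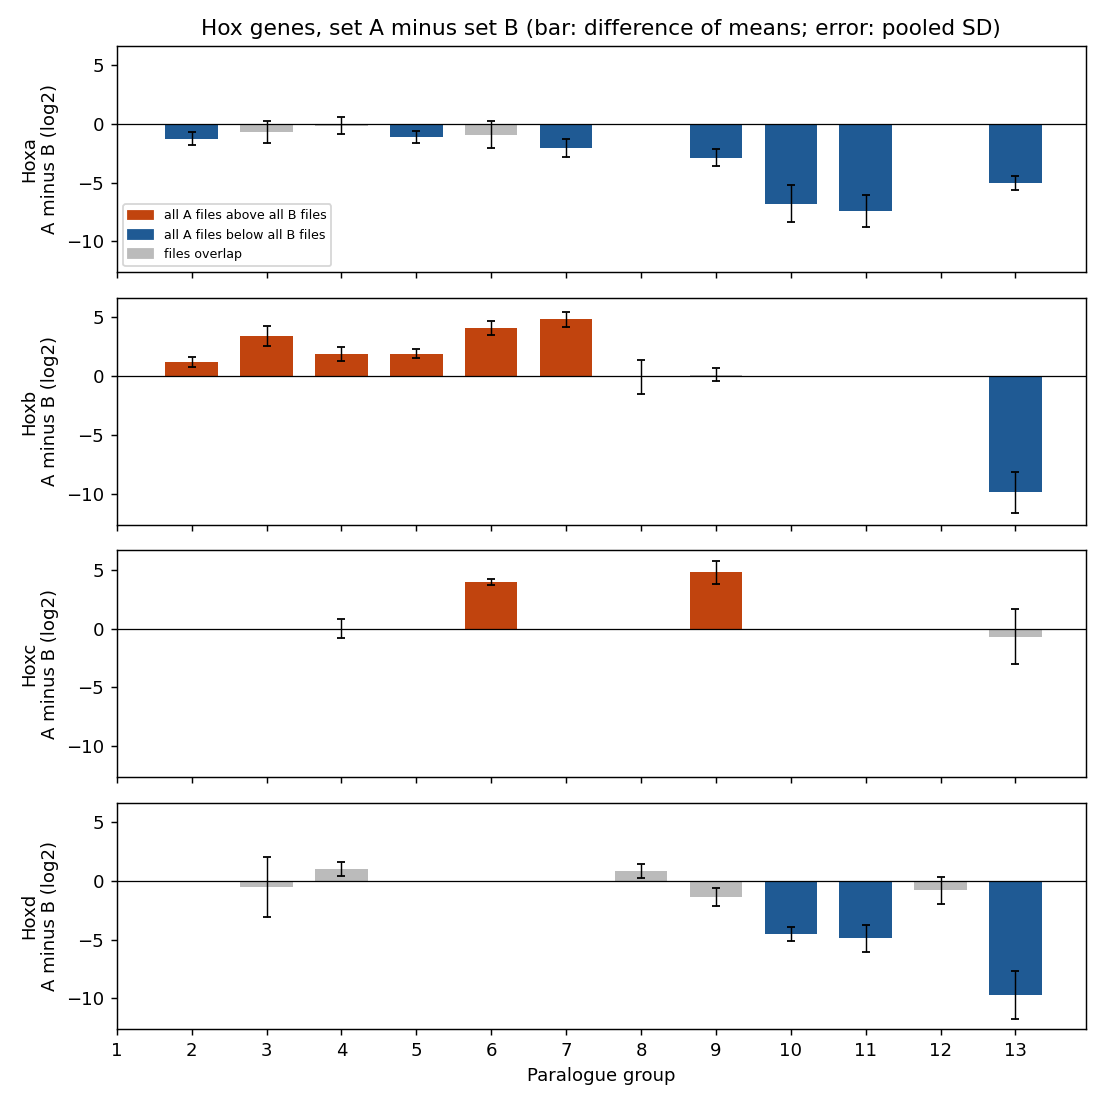
Difference in mean log2 signal between set A and set B (y axis) for 31 measured Hox genes, by paralogue group (x axis) and cluster (panels). Bars are differences of the means of 4 files, error bars are the pooled SD, and colour gives whether the files of the sets overlap. Bars of HoxB 2 to 7 point up and those of groups 10 to 13 in HoxA, HoxB and HoxD point down, Hoxd12 with overlapping files.

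Among 23 transcription factors that pattern the gut, 5 were higher in set A and 2 were lower, where 4.59% and 2.94% of all genes were. Gata5, Isx and Cdx2 differed by 4.26, 3.80 and 3.15 on the log2 scale. Gata5 was uneven in set B, at -1.74, -5.61, -5.73 and -1.36. Cdx2, the intestinal master regulator, read 3.54, 2.13, 3.41 and 2.33 in set A and -1.07, 0.79, 0.07 and -0.97 in set B. Hnf4a, the nuclear receptor named for the promoter letters above, differed 2.01-fold and was bright throughout, at 4.28 to 4.50 in set A. It was uneven in set B, at 2.99, 4.10, 4.02 and 2.31, so the files normal 2 and normal 3 were close to set A. Foxa2, a forkhead factor of the endoderm, was 7.46-fold lower in set A. Gata4, which marks the proximal small intestine, was dim and overlapped, at -4.89 to -3.16 in set A and -6.93 to -2.26 in set B.

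Of 20 genes for hormones and granule proteins of enteroendocrine cells, 6 were higher in set A and 2 were lower. Of all genes, 4.59% were higher and 2.94% lower. Nts, neurotensin of the ileum, read 3.55, 3.65, 3.99 and 3.81 in set A and -1.94, -3.24, -3.07 and -0.37 in set B. Sct, secretin, differed 13.4-fold. Insl5, a hormone of colonic L cells, read -1.47, -1.71, -0.52 and -2.75 in set A and 4.50, 5.83, 4.67 and 3.23 in set B, a difference of 72.0-fold. Pyy, peptide YY, was bright in both sets and differed 4.26-fold, lower in set A. Of 28 drug-metabolising enzyme genes, 12 were higher in set A and 3 were lower, with Cyp3a25 at 187-fold.

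Most T and NK cell genes were also higher in set A. Of 15 T and NK cell genes, 11 were higher and none was lower, with a median difference of 2.14. Gzma, a granzyme of cytotoxic lymphocytes, read 4.38, 4.58, 4.60 and 4.67 in set A and -0.45, -0.22, -1.01 and -0.05 in set B, a difference of 31.7-fold. Cd8a, the alpha chain of CD8, differed 13.7-fold. Itgae, the integrin that holds lymphocytes in the epithelium, differed 4.41-fold. Cd4 was dim and overlapped, at -5.37 to -3.06 in set A and -5.77 to -2.06 in set B. None of 13 B cell and plasma cell genes met either rule. Of all genes, 4.59% were higher and 2.94% lower, so this count is near the shares over all genes. It does not show that B cell genes were alike in the sets. Pou2af1, of this list, was higher in set A by 0.84 with no overlap, which is under 2-fold.

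Products of goblet cells, which line the whole intestine, mostly met neither rule. Of 20 goblet cell products, 1 was lower in set A, the channel gene Best2 of colonic goblet cells (23.4-fold), and none was higher. Muc2, the main secreted mucin, read 4.92 to 5.81 in set A and 3.89 to 6.06 in set B. Of 15 pan-epithelial genes, 2 were higher, Vil1 and Cdh17. No gene of the enteric neuron and glia list (14 genes), the cell cycle list (23), the stomach list (7), the skeletal muscle list (7) or the erythrocyte list (3) met either rule. Of 12 smooth muscle genes, 1 was higher and 1 lower. The counts were 4 higher and 1 lower of 10 hepatocyte genes, 1 and 2 of 11 squamous genes, 3 and 0 of 8 adipocyte genes and 0 and 3 of 22 neutrophil genes. Over all genes, 4.59% were higher and 2.94% lower. Whether members of these lists came from the cells that name them was not tested. Adipocyte list means were -0.46 to 0.77 in set A and -1.80 to -0.52 in set B.

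Pancreatic acinar genes moved with set B in 3 of its files. Their list mean was 3.37 in tumor 1, 2.46 in normal 3 and 3.00 in normal 4, but -2.26 in normal 2 and -2.59 to -0.58 in set A. Pnlip, pancreatic lipase, read 4.54, 3.93 and 4.28 in those 3 files and -6.04 in normal 2. Their part in the differences between the sets was not tested. Cela1 was the 1 of 13 genes that met a rule, at 12.0-fold lower in set A, and it was bright in normal 2 as well. Sycn, which encodes a zymogen granule protein, read 6.72, 7.58, 6.94 and 5.07 in set B, so it did not share the low value of the acinar list in normal 2. In set A it read -1.40, -2.0, 0.63 and -2.19.

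Sex-linked genes and the genes of the genotypes did not separate the sets. Ddx3y, on the Y chromosome, read 0.09 to 0.69 in set A and 0.22 to 0.73 in set B. Xist, the X-inactivation RNA, read -6.17 to -2.71 in set A and -7.18 to -3.28 in set B. Apc read 0.41 to 0.54 and 0.23 to 0.69. Tcf7l2, the gene called Tcf4 in the labels, read 2.08, 1.28, 1.46 and 2.57 in set A and 1.54, 3.17, 3.28 and 1.32 in set B.

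Over all named genes, the 10 largest positive differences included those of Prm1, Slc51a, Apoa1, Defa31, Defa29, Slc6a19, Npc1l1, Slc13a1 and Sis. The first of these rests on 1 probe. Prm1 encodes a protamine of sperm chromatin, and its brightest probe read 6.36, 5.89, 6.96 and 6.95 in set A and -3.51, -3.67, -4.11 and -3.96 in set B. A second Prm1 probe differed by 1.17 and another by -0.25. The 10 largest negative differences were those of Aqp8, Sycn, Cyp2d34, Ccn3 and Cyp2f2, above background in all files, and of Hoxb13, Hoxd13, Hoxa11, Hoxa10 and Fxyd4, which were at background in 1 to 3 set A files and have no order among them. Fxyd4, a sodium pump regulator of the distal colon, read -4.58, -5.21, -1.85 and -6.49 in set A and 3.87, 4.44, 4.45 and 4.04 in set B. Among all 635 genes lower in set A, the file tumor 3 was the highest of its set in 238 (37.5%), normal 1 in 219 (34.5%), tumor 2 in 137 (21.6%) and tumor 4 in 41 (6.46%).

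Inside set A, the files of slide 2, tumor 3 and tumor 4, differed from those of slide 1, normal 1 and tumor 2, in a group of absorptive genes. With the same rule, 219 genes were higher in the slide 2 pair (1.01%) and 214 were lower (0.990%). The median over all genes was -0.04. Lct, the lactase of the jejunal brush border, read -4.11 and -4.44 on slide 1 and 3.98 and 3.89 on slide 2. Plb1, a brush border phospholipase, read -2.63 and -3.02 against 4.50 and 3.88, and its 3 other probes ran the same way. Both genes were thus within the range of set B in 2 files of set A and above it in the other 2.

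Enpp7, the alkaline sphingomyelinase of the upper small intestine, read -3.11 and -3.95 against 0.54 and 1.29. Slc2a2, the glucose transporter GLUT2, read -3.88 and -4.59 against 0.57 and -0.16. Fabp1, a fatty acid binding protein of liver and proximal gut, read 0.62 and 0.82 against 5.48 and 4.31. Gip, a hormone of the duodenum and jejunum, read -2.04 and -2.67 against 1.0 and 0.85. The genes of this comparison were named after their values were seen. Of the 7 ileal bile acid genes, 5 overlapped between the pairs, among them Fabp6 (-0.86), Slc10a2 (-0.33) and Slc51a (0.07). Fgf15 was higher on slide 2, by 1.83, and Nr1h4 was lower, by -0.45, which is under 2-fold.

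By list, 8 of 22 lipid absorption genes, 6 of 25 nutrient transporters, 6 of 28 drug-metabolising enzymes and 2 of 15 brush border hydrolases were higher on slide 2. In the ileal bile acid list, 1 of 7 met the rule, Fgf15. In the neutrophil list, 9 of 22 were lower on slide 2. The same slide contrast inside set B gave 1.08% of all genes higher and 2.28% lower, with 0 higher genes in the brush border, lipid and drug-metabolising lists and 1 in the nutrient transporters, Slc34a2 (1.30). Lower there were 2 brush border, 5 lipid, 2 transporter and 2 drug-metabolising genes, with Creb3l3 at -3.20, Slc2a5 at -2.87 and Apoc2 at -2.52. There it was 0.58 for Lct, -0.43 for Plb1 and -1.53 for Slc2a2, each with overlapping files. In set B, Lct was well above background in 3 of 4 files and Slc2a2 in 2 of 4, which limits their values. Gdpd3 differed by slide in both sets, by -5.32 in set A and -5.07 in set B. Slide and sample cannot be told apart inside set A.

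**Figure D4:**
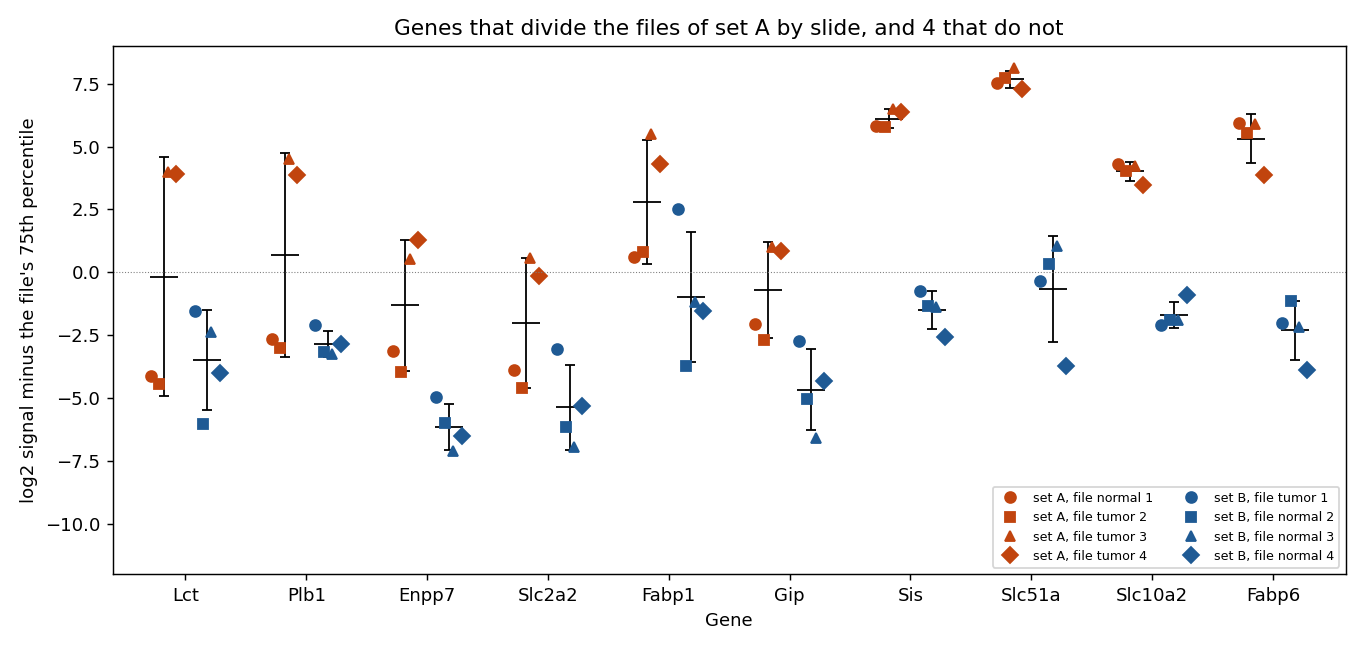
Signal of 10 absorptive and hormone genes in each scanner file, as log2 relative to the file's 75th percentile (y axis), by gene (x axis). Points are single files of set A (orange) and set B (blue), and black bars are the mean ± SD of 4 files. From Lct to Gip, the slide 2 files of set A (triangle and diamond) lie far above its slide 1 files (circle and square), whereas Sis, Slc51a, Slc10a2 and Fabp6 are high in all 4.

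Inside set B, the files that match columns labelled tumor (tumor 1 and normal 4) stood apart from those that match columns labelled normal (normal 2 and normal 3), 1 of each on each slide. Of all genes, 6478 were higher in the first pair (30.0%) and 1498 lower (6.93%). The median over all genes was 0.32, and the file normal 2 had the smallest share of probes above background, 55.55% against 70.28% to 82.73% in the other 7 files. Counts of members are to be read against that background. Of 25 Wnt targets and stem cell markers, 17 were higher in the first pair and none was lower, and 19 of 22 neutrophil and inflammation genes were higher.

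Wnt targets of set A are given beside both pairs. Sp5, a direct target of beta-catenin, read 2.61, 1.29, 1.30 and 1.41 in set A, 2.40 and 2.61 in the files matching tumor columns, and -3.64 and -5.83 in those matching normal columns. Apcdd1, a Wnt inhibitor that Wnt signalling switches on, read 2.25, 1.63, 1.56 and 0.74 in set A, 5.25 and 5.78 in the first pair, and -0.90 and -0.55 in the second. Axin2, the feedback scaffold, read 2.88, 2.81, 2.67 and 2.90 in set A, 3.30 and 3.88 in the first pair, and 1.13 and 1.5 in the second. All 4 files of set A therefore lay above both files that match normal columns for these 3 genes.

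Against the pair matching normal columns, 14 of 25 genes of this list were higher in set A and none was lower, where 8.20% and 4.84% of all genes were. Against the pair matching tumor columns, 1 was higher and 8 were lower, where 7.52% and 9.27% of all genes were. These comparisons share the files of set A. The 1 higher gene was Olfm4, a stem cell marker of the small intestine, which read 1.07, -0.05, 0.55 and 1.48 in set A and -6.47, -6.16, -5.97 and -7.64 in set B, where it was well above background in 1 of 4 files. Lgr5, the receptor of crypt base stem cells, read 1.88, 0.81, 0.58 and 1.59 in set A, 0.18 and 0.71 in the first pair and -1.43 and -0.76 in the second.

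All 22 genes of the neutrophil list were lower in set A than in the pair matching tumor columns, and 10 were higher and 3 lower than in the pair matching normal columns. S100a9, a neutrophil calcium-binding protein, read 2.80, 1.88, 2.67 and 0.51 in set A, 6.70 and 6.44 in the first pair and 0.32 and 1.32 in the second. Cxcl5, a neutrophil chemokine, read 0.34, -0.76, -0.02 and -1.71, then 3.67 and 4.40, then -4.50 and -2.14. Of 15 brush border hydrolases, 13 were higher in set A against either pair. The colonocyte list gave 3 higher and 18 lower of 28 against the pair matching normal columns, and 7 higher and 10 lower against the pair matching tumor columns.

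**Figure D5:**
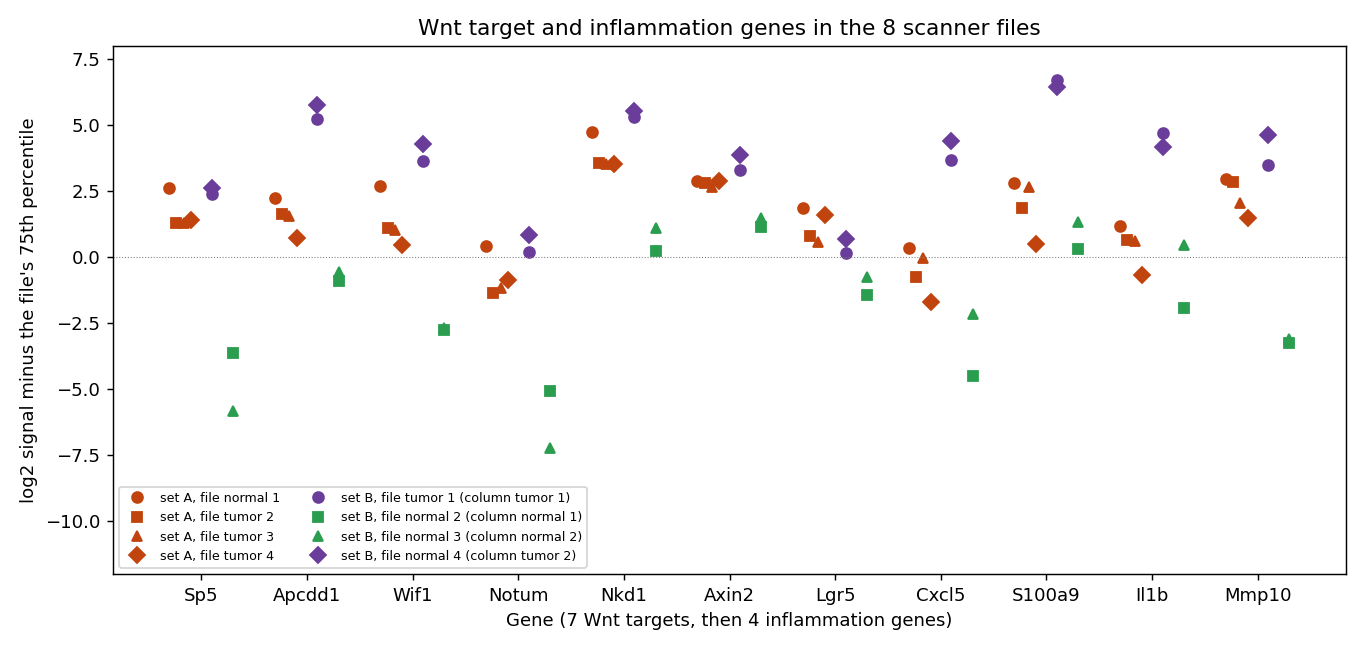
Signal of 7 Wnt target or stem cell genes and 4 inflammation genes in each scanner file, as log2 relative to the file's 75th percentile (y axis), by gene (x axis). Points are single files: set A (orange), set B files matching tumor columns (purple) and set B files matching normal columns (green). Set A lies above the green points for the Wnt targets, and below the purple points for the inflammation genes.

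The authors' value table holds 4 further columns that match no file, normal 3, normal 4, tumor 3 and tumor 4. Taken relative to each column's 75th percentile, their distal colon markers lay in or near the range of the columns that have a file. Hoxb13 ran from 3.99 to 4.72 and Aqp8 from 4.02 to 7.12 in these columns. Sis ran from -2.87 to 0.92 and Fabp6 from -3.04 to 1.93, the highest of both being column normal 3. In the columns that have a file, Sis reached at most -0.78 and Fabp6 -1.01, so column normal 3 lay above them. Its ileal bile acid list mean was 0.13, against -2.6 to -1.36 in the columns that have a file. The brush border list ran from -1.70 to 0.19, against -1.89 to -0.32 in the 4 columns that have a file. The Prm1 probe ran from -3.82 to -1.80. The expression of set A, with high small intestine genes and low Hoxb13, was thus found in 4 files and in no column of the table.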

How the data were processed

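Total RNA of 8 samples was hybridised to 8 1-colour Agilent arrays. The deposited scanner files hold processed spot intensity values from Agilent Feature Extraction 9.5.1.1 per the file headers, whereas the submitters' processing notes name 10.1.1.1. The authors' value table holds log2 values whose 8 columns share a median of 8.51 and a 75th percentile of 11.4, and each column was read minus its own 75th percentile. Probe coordinates are mm8 per the file headers, and exon or intron positions on that build were not analysed here.

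Outlier-flagged spots were dropped, spots of a probe averaged, and log2 values taken relative to the 75th percentile over the 40995 probes unflagged in all files, which left out 179. Probes well above background in at least 4 of 8 files were kept (31979), and the brightest probe stood for its gene. No spot was saturated. The number of arrays limits the precision. Probes were named by accession (24375), symbol (6301) or synonym (2426) through RefSeq genes, or kept the file's name (8072).

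The sets, the lists and the motifs were chosen with earlier results of these data known. Named genes were the 8 markers, sex-linked and genotype genes, all Hox genes, up to 4 non-overlapping members of each list with the largest difference, the 10 largest differences in each direction over all genes, and the 5 genes of widest range within each set. Some genes that the rule names are not reported here. Other members named were chosen after their values were seen. Differences are means with SD and no test. Alternatives were other scalings (median, quantile, percentile over detected probes), normexp with offset 50, the mean over probes, other filters, other fold limits, each slide alone, each file left out, and differences within replicate numbers. The counting rule was tested on simulated data with the same small spread for all genes, large shifts and no structure inside the sets. Such data do not show how the rule behaves on these files. Python 3.11.15, pandas 2.3.3, numpy 2.4.6, R 4.3.3, limma 3.58.1 and matplotlib 3.10.9 were used.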

Additional observations from a re-analysis of the deposited data

Results flagged for a closer look

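In 292 sets of 4 files, 23 (7.88%) had 1 file whose gap to the nearest other file was above Dixon's critical value as a share of the range, where chance gives about 5%. The genes tested include the 5 of widest range within each set, chosen for their spread. The 7.88% can therefore not be read against chance. The gap as a share of the range is given for each, with no explanation.

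In set B, the file normal 4 was the lowest for Apoa1 (0.854), the amino acid carrier Slc6a19 (0.842), Cyp4b1 (0.861), the smooth muscle gene Tagln (0.874), the glial gene S100b (0.961), the thyroid hormone carrier Ttr (0.964) and Defa29 (0.967). It was the highest for Slc10a2 (0.833). The file normal 3 was the lowest for Pura (0.871), Gfer (0.954) and Rnpc3 (0.997). The file normal 2 was the lowest for Pnlip (0.942) and the pancreatic acinar list (0.838), and tumor 1 was the highest for Apoc3 (0.873).

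In set A, the file tumor 3 was the highest for Hoxb13 (0.842), Defa22 (0.859) and the pan-epithelial list (0.898). It was the lowest for the cell cycle list (0.968), at 2.0 against 2.47 to 2.48. The file tumor 4 was the lowest for Tmigd1 (0.919) and Saa3 (0.897) and the highest for Cdh17 (0.957). The file normal 1 was the highest for the Wnt and stem cell list (0.952), at 1.48 against 0.92 to 0.95, and the lowest for the sialyltransferase gene St6galnac1 (0.947).

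Hoxb9 differed in opposite directions by slide, at 0.74 between the sets on slide 1 and -0.46 on slide 2, and the difference between the slides was not tested.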

How the results depend on the processing

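Within slide 2, 1540 genes were higher and 1022 lower in set A, and within slide 1, 1318 were higher and 2128 lower, so that lower genes were the more numerous there, each from 2 files a set. A 4-fold limit left 453 and 226, and without the condition on overlap 1098 were lower. Leaving out 1 file in turn gave 986 to 1244 higher and 605 to 819 lower genes. The brush border list mean differed by 3.80 within slide 1 and 5.34 within slide 2, the lipid list by 2.50 and 4.42, and the nutrient transporters by 1.43 and 2.75. The ileal bile acid list gave 5.49 when probes had to be above background in all files of a set. Changes of sign were looked for only among named genes and lists that differed at least 2-fold between the sets. Hoxb6 changed sign under quantile normalization (-0.16, through another probe). Within slide 1, St6galnac1 (-0.46), Lct (-0.51), Plb1 (-0.19), Gfer (-0.49) and Rnpc3 (-0.09) did so. Without the file normal 3, Gfer (-0.45) and Rnpc3 (-0.12) did so. Smaller differences that changed sign, as some did by slide, are not listed. The cause was not tested. Leaving out 1 file in turn gave -0.45 to 2.73 for Gfer and -0.12 to 3.05 for Rnpc3.

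Files of the same replicate number had deviations from their set means that correlated at 0.55, -0.01, -0.74 and -0.45 over 21618 genes. These deviations also carry the split inside set B by matching column. They therefore cannot decide whether the numbers pair the samples. With the replicate block, 1141 genes were higher and 798 lower.

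The sets cannot be told apart from array position. Dim genes are limited by background.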
